A study of Mus musculus with 8 samples.

Results

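The immediate early genes Fos, Fosb, Jun, Junb, Egr1, Nr4a1, Atf3, Ier2 and Ier3 were taken by symbol from the array's value table. These 9 genes are part of the 22180 genes that had a probe set (the group of probes that reads a gene) naming that gene alone. Each of the 9 was read by 1 such probe set, so no choice between probe sets was needed. Expression was measured on 8 arrays of amplified cDNA from cells sorted out of mouse skin. P4_WT holds 2 arrays of the labelled melanoblast population at 4 days, and P21_WT holds 2 arrays of the labelled melanocyte stem cell population at 21 days, both B-raf +/+ and C-raf +/+. P21_KO holds 4 arrays of the latter population at 21 days from mice with both genes floxed (fl/fl). The study asked how stem cells differ from melanoblasts and which genes take part in keeping them.

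Every mouse carried the Tyr::Cre transgene and the Z/EG reporter on a mixed C57Bl/6 and 129/Sv background. Cre under the tyrosinase promoter acts in the pigment cell lineage. It recombines the floxed alleles in P21_KO, and in all groups it switches on the green fluorescent protein by which the cells were sorted, with p75-negative cells kept. In all groups the skin was first digested with collagenase IV and dispase at 37 °C. The wild-type replicates came from separate animals per the study's design text. The descriptions of P21_KO replicates 2, 3 and 4 carry a common number that the labels leave unexplained. If those arrays are not independent animals, the p-values below are too small.

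Immediate early genes are transcribed within minutes of a stimulus, without new protein synthesis. Growth factors acting through the RAS-RAF-MEK-ERK cascade induce them through serum response factor and its ETS partners, and calcium, cyclic AMP and stress signals through CREB and through stress kinases. FOS and JUN proteins pair through leucine zippers to form AP-1, EGR1 is a zinc finger factor, NR4A1 is an orphan nuclear receptor, and ATF3 is a stress-induced relative of CREB. Several of these genes are also known to be induced when fresh tissue is dissociated with enzymes. RAF kinases stand upstream of ERK.

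The starts of 7 of the 9 genes were found in RefSeq (GRCm38.p6). The bases just before each start are shown because promoters can carry regulatory elements by which such genes respond. They are the 130 bases before the start, 5′ to 3′ on the strand of the gene. Capitals mark TGACG, which is the first part of the cyclic AMP response element, on either strand, as well as the AP-1-like letters TGACATCA, the EGR motif GCGNGGGCG and the TATA motif TATAAA.

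Fos, chr12:85473760-85473889, plus strand: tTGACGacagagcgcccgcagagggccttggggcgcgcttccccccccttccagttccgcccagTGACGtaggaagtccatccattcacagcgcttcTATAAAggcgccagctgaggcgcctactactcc

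Fosb, chr7:19310046-19310175, minus strand: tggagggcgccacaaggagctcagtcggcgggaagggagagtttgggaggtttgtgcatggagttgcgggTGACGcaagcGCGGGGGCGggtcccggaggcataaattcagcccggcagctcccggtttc

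Jun, chr4:95052223-95052352, minus strand: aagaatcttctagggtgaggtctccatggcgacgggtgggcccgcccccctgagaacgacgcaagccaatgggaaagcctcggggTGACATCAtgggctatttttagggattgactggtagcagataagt

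Junb, chr8:84978749-84978878, minus strand: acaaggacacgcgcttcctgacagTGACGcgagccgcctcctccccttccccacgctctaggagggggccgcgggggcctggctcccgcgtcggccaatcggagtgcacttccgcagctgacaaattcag

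Nr4a1, chr15:101266716-101266845, plus strand: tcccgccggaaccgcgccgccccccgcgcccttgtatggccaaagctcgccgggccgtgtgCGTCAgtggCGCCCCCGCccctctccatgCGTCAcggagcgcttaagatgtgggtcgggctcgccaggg

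Atf3, chr1:191183334-191183463, minus strand: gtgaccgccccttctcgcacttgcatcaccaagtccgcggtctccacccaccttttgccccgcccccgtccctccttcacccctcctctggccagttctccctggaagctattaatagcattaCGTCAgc

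Ier3, chr17:35821583-35821712, plus strand: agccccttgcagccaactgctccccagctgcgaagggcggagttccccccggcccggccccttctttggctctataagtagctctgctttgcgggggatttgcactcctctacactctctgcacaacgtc

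In the 250 bases before the start, TGACG stood in 5 of these 7 promoters, and in 17.8% of all 32851 RefSeq promoters searched alike on both strands. Nr4a1 held 4 matches, Fos 2, and Fosb, Junb and Atf3 1 each. Jun held TGACATCA, found in 2.93% of all promoters, and Ier3 held neither. GCGNGGGCG was found in Fosb and Nr4a1 (4.70% of all promoters) and TATAAA in Fos (12.4%). The GC-box letters GGGCGG, which overlap the GCGNGGGCG match in both genes and are not marked, stood in 6 of 7 (32.7%), all but Junb. The full element TGACGTCA, the AP-1 motif TGANTCA and the CArG box bound by serum response factor were in none of the 7, and in 1.55%, 6.75% and 1.47% of all promoters. Elements farther upstream lay outside this search, so their absence from the 250 bases does not show that a gene lacks them. The promoters of Egr1 and Ier2 were not searched. TGACG and TGACATCA were added to the search after the sequences had been seen. A match is a description of these letters and not a measured binding site.

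Arrays of the same group correlated at 0.954 to 0.974 across genes, and arrays of different groups at 0.910 to 0.977. The mean of 12 melanocyte markers was 9.35 and 9.20 in P4_WT, 7.86 and 7.79 in P21_WT and 6.09 to 7.48 in P21_KO, against a median of all values of 3.37. Dct and Sox10, a pigment enzyme gene and a lineage factor gene, read at least 8.76 and 7.23 on every array. Other markers read lower in P21_KO, down to 3.05 for Oca2, 3.47 for Slc45a2 and 5.02 for Tyr. By age 11 of the 12 were lower, and Oca2 and Gpr143, genes of melanosome proteins, fell past the threshold used below. By genotype 11 were lower and none passed. In P21_KO against P4_WT 8 fell past it and Sox10 rose past it. Markers of other skin cells were present too. On P4_WT replicate 2 the means of the 9 measured immune, 8 endothelial and 6 mast cell markers were 6.04, 5.61 and 4.77. On the other arrays they were 3.01 to 3.59, 3.21 to 3.59 and 2.16 to 2.44. The mean of 5 muscle markers was 4.14 on P21_WT replicate 1, against 2.95 to 3.16 on the other arrays. That of 6 pericyte and smooth muscle markers was 6.01 on P4_WT replicate 1, against 4.32 to 5.13 on the others. Braf, a target of the knockout, read 0.34 ± 0.36 (SE) lower in P21_KO than in P21_WT (limma adjusted p = 0.944), and whether its probes lie in the floxed part is not known here.

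Between 4 and 21 days, 8 of the 9 genes were higher in wild-type cells by 1.08 to 2.71 on the log2 scale, and Ier3 differed by 0.14. A linear model of the 3 groups was fitted to all genes with limma, and a gene was called at a Benjamini-Hochberg adjusted p under 0.05. Fosb, Nr4a1, Jun, Atf3, Fos and Junb rose past this threshold, and 0 of the 9 fell. Across all genes 0.757% were called higher and 0.852% lower. In 8 of the 9 both P21_WT arrays lay above both P4_WT arrays, as they did in 21.4% of all genes. The median change of the 9 genes was 1.62, and that of all genes was 0.00. In bulk samples like these, fewer cells of a type and less RNA per cell cannot be told apart.

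**Figure D1:**
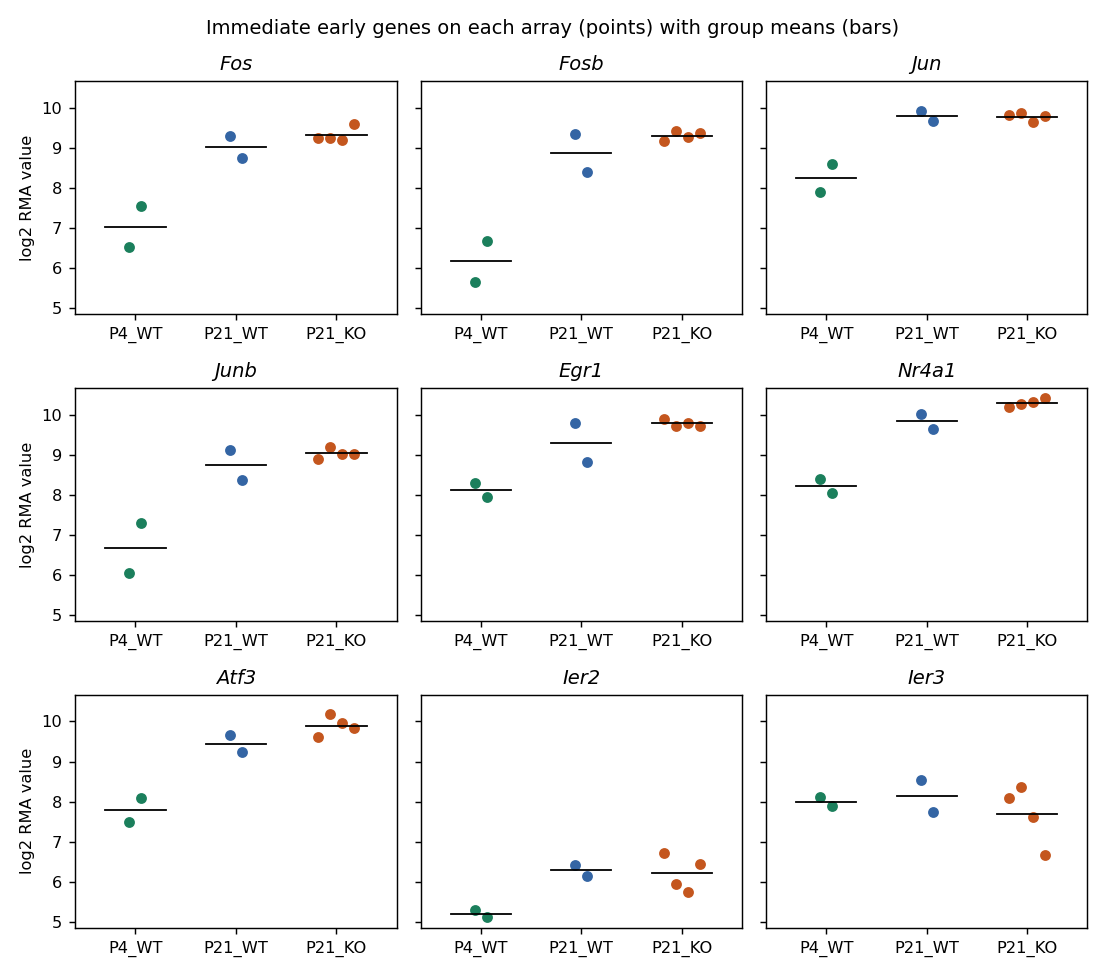
Log2 RMA value (y axis) of each of the 9 genes in the 3 groups (x axis), with 1 point per array and a bar at the group mean. In 8 of the 9 panels all 6 arrays at 21 days lie above both arrays at 4 days; in the Ier3 panel the groups overlap.

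Fosb, which encodes a FOS family partner of JUN proteins, had the widest spread over the arrays. It read 5.66 and 6.68 in P4_WT, 9.35 and 8.40 in P21_WT, and 9.17 to 9.42 in P21_KO. The lowest 21-day array stood 1.72 above the highest 4-day array. The rise in P21_WT was 2.71 ± 0.38 (SE), or 6.52-fold (limma adjusted p = 0.0131).

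Fos, the founding member of that family, showed the same order of groups. Its values were 6.52 and 7.55 in P4_WT, 9.29 and 8.74 in P21_WT, and 9.20 to 9.59 in P21_KO. The 4-day arrays differed from each other by about as much as the gap of 1.19 between the ages. The rise was 1.98 ± 0.34 (SE), 3.96-fold (limma adjusted p = 0.0308).

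Jun encodes the AP-1 subunit that can pair with itself as well as with FOS proteins. It read 7.91 and 8.59 in P4_WT, 9.93 and 9.67 in P21_WT, and 9.64 to 9.87 in P21_KO. The 21-day arrays of both genotypes lay close together, and the lowest P21_WT array stood 1.08 above the highest 4-day array. The rise was 1.55 ± 0.24 (SE), 2.93-fold (limma adjusted p = 0.0202).

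Junb, a JUN relative often found to restrain proliferation, read 6.06 and 7.31 in P4_WT, the widest split within that group among the 9. P21_WT read 9.13 and 8.38 and P21_KO 8.90 to 9.20. The rise was 2.07 ± 0.39 (SE), 4.20-fold (limma adjusted p = 0.0447). Fos, Fosb, Jun, Junb and Atf3 were all higher on P4_WT replicate 2, the array with immune, endothelial and mast cell marker signal. The other 4 genes were higher on replicate 1, as were 48.4% of all genes. Replicate 1 had the higher means of hair shaft and inner root sheath markers (6.02 against 4.19) and keratinocyte markers (7.32 against 6.44). The part of any of these cells in these values was not tested.

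Atf3 encodes a factor that pairs with JUN proteins at AP-1 and cyclic AMP response elements. It read 7.49 and 8.09 in P4_WT, 9.66 and 9.23 in P21_WT, and 9.60 to 10.19 in P21_KO. The ages did not overlap, with a gap of 1.14 in wild-type cells. The rise was 1.65 ± 0.27 (SE), 3.15-fold (limma adjusted p = 0.0279).

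Nr4a1, the nuclear receptor gene, had the smallest error of the 9. It read 8.40 and 8.03 in P4_WT, 10.02 and 9.64 in P21_WT, and 10.19 to 10.41 in P21_KO. The lowest 21-day array stood 1.24 above the highest 4-day array. The rise was 1.62 ± 0.20 (SE), 3.07-fold (limma adjusted p = 0.00908).

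Egr1, the zinc finger factor gene, was higher without passing the threshold. Its P4_WT values were 8.30 and 7.94, its P21_WT values 9.79 and 8.82, and its P21_KO values 9.71 to 9.89. One P21_WT array matched the knockout arrays and the other lay 0.52 above the higher 4-day array. The difference by age was 1.18 ± 0.30 (SE) with a limma adjusted p of 0.11. It was 0.70 without P21_WT replicate 1, and 1.67 without P21_WT replicate 2, where it passed (limma adjusted p = 0.0329).

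Ier2 encodes a small nuclear protein. It read 5.30 and 5.11 in P4_WT, 6.42 and 6.16 in P21_WT, and 5.74 to 6.72 in P21_KO. The ages did not overlap, but the knockout arrays were spread over nearly 1 log2 unit. The difference in wild-type cells was 1.08 ± 0.31 (SE) with a limma adjusted p of 0.17.

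Ier3, whose product acts on cell survival and ERK signalling, went apart from the other 8. It read 8.11 and 7.89 in P4_WT, 8.54 and 7.74 in P21_WT, and 8.10, 8.36, 7.62 and 6.66 on P21_KO replicates 1 to 4. The groups overlapped. The lowest array, P21_KO replicate 4, also had the lowest melanocyte marker mean (6.09) and the highest keratinocyte marker mean (8.03). The part of either in the Ier3 value was not tested. The difference by age was 0.14 ± 0.51 (SE), with a 95% interval from -1.04 to 1.31 (limma adjusted p = 0.966).

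The call by age rested on few arrays. It held for Fosb and Nr4a1 in 7 of the 8 refits with an array removed, for Jun in 6, Atf3 in 4, Fos in 2 and Junb in 1. The number of the 9 genes called was 0 without P21_WT replicate 1 and 3 without P21_WT replicate 2, namely Fosb, Nr4a1 and Egr1. It was 3 without P4_WT replicate 1 or P21_KO replicate 3, and 4 without P21_KO replicate 1 or 2. It was 0 with the wild-type arrays alone, and 2, Fosb and Nr4a1, with the P21_KO arrays of shared number averaged to 1 sample. The log2 difference of the 8 genes other than Ier3 stayed above 0 in each of the 18 settings tried. Most of these left that difference unchanged. Only cyclic loess, centring arrays on their medians and leaving out a wild-type array moved it.

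Knockout cells at 21 days were then set against wild-type melanoblasts at 4 days, a comparison in which age and genotype cannot be told apart and which shares P4_WT with the one above. Here 7 of the 9 genes rose past the threshold, where 3.05% of all genes rose and 4.68% fell. Fosb was higher by 3.14 ± 0.33 (SE), 8.81-fold (limma adjusted p = 0.00136). Nr4a1 was higher by 2.08 ± 0.17 (SE), 4.23-fold (limma adjusted p = 0.000508). Junb rose by 2.35, Fos by 2.29, Atf3 by 2.11, Egr1 by 1.66 and Jun by 1.54. Ier2 differed by 1.01 ± 0.27 (SE) and did not pass (limma adjusted p = 0.0638), and Ier3 differed by -0.32 ± 0.44 (SE) with a limma adjusted p of 0.771. For 8 of the 9 genes all 4 P21_KO arrays lay above both P4_WT arrays, as in 14.2% of all genes. Of the 7 called genes, 6 were called in each of the 8 fits that left out 1 array, and Egr1 was lost without P4_WT replicate 2 (1.49, limma adjusted p = 0.0583).

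**Figure D2:**
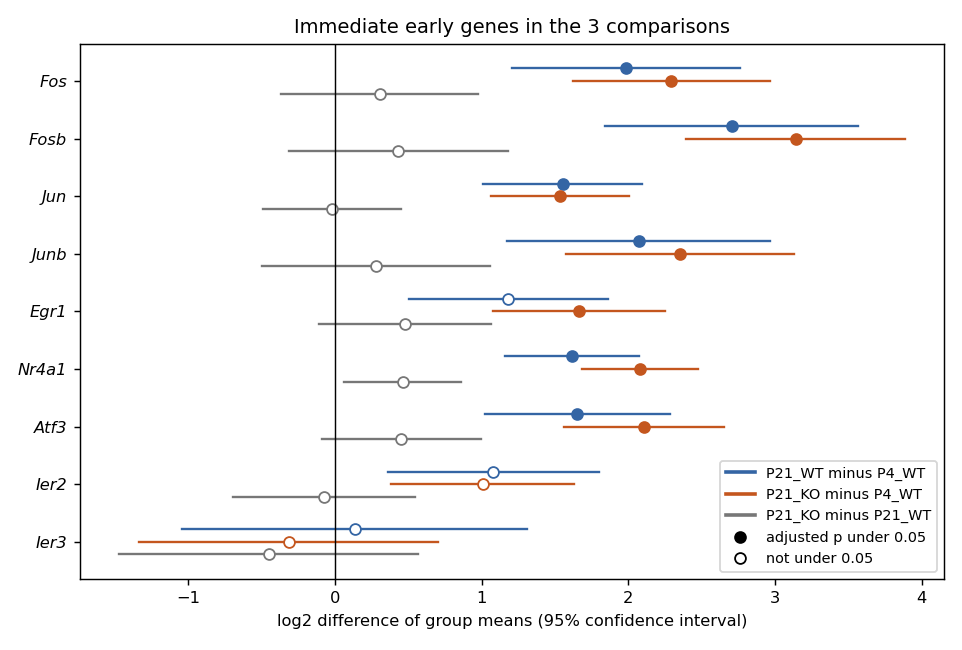
Log2 difference between group means (x axis) of each of the 9 genes in the 3 comparisons, with 95% confidence intervals from the limma fit and filled points for an adjusted p under 0.05. Of the P21_WT minus P4_WT differences 6 are filled, of the P21_KO minus P4_WT differences 7, and of the P21_KO minus P21_WT differences 0.

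The genotype comparison asked which genes of the stem cells differ when B-raf and C-raf can be deleted. None of the 9 genes passed the threshold in limma, and 1, Nr4a1, had an unadjusted p under 0.05. Across all genes limma called 0%, and 6.52% had an unadjusted p under 0.05. The differences were small, from -0.45 to 0.48, with 6 higher and 3 lower in P21_KO, where 51.4% of all genes were higher. Their median was 0.31, against 0.01 for all genes.

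Nr4a1 was the 1 gene whose groups did not overlap, being higher on all 4 P21_KO arrays as were 7.75% of all genes. Its difference was 0.46 ± 0.17 (SE), with a 95% interval from 0.07 to 0.86 (unadjusted p = 0.0275, adjusted p = 0.712 in limma). Egr1 was 0.48 ± 0.26 (SE) higher, with an interval from -0.11 to 1.07. Jun was the nearest to no difference, at -0.02 ± 0.21 (SE) with an interval from -0.49 to 0.45. For Fosb (0.43) the interval ran from -0.31 to 1.18, for Atf3 (0.45) from -0.09 to 1.00, for Fos (0.31) from -0.36 to 0.98 and for Junb (0.28) from -0.50 to 1.06. Ier2 was at -0.07, with an interval from -0.70 to 0.55. Ier3 was at -0.45, with an interval from -1.47 to 0.57. No interval reached above 1.18, and those of all but Ier2 and Ier3 stayed at or above -0.50.

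The wild-type arrays differed from each other in these genes. P21_WT replicate 1 read higher than replicate 2 for all 9 genes, where 51.4% of all genes did. Its muscle marker mean was also higher (4.14 against 2.98), and the part of muscle cells in these values was not tested. Replicate 1 lay within the range of the P21_KO arrays for 6 of the 9, above it for Jun and Ier3 and below it for Nr4a1. Replicate 2 lay below every P21_KO array for Fos, Fosb, Junb, Egr1, Nr4a1 and Atf3, where 19.8% of all genes did. Without P21_WT replicate 2 the differences of Fosb, Junb and Egr1 were -0.04, -0.09 and -0.0042, and without replicate 1 they were 0.91, 0.66 and 0.97. Without replicate 2 Fos was at 0.03, Nr4a1 at 0.27 and Atf3 at 0.24, and these 3 stayed above 0 in each fit with an array removed. Ier2 moved to 0.084 without P21_KO replicate 3 and Ier3 to -0.11 without P21_KO replicate 4. The knockout arrays were close together for several genes, with an SD (n = 4) of 0.08 for Egr1, 0.09 for Nr4a1, 0.10 for Jun and 0.11 for Fosb, against 0.45 for Ier2 and 0.75 for Ier3.

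Relatives of the 9 genes were taken from a fixed list, of which 13 of 14 genes were measured. In P21_WT against P4_WT 11 were higher and 2 lower, with a median of 0.44. Egr2, Nr4a2, Mafk and Jund rose past the threshold and none fell. Jund, the third JUN gene, went from 6.53 to 8.75 (2.22 ± 0.41 SE, limma adjusted p = 0.0414). Nr4a2, close kin of Nr4a1, went from 7.48 to 9.10 (1.62 ± 0.18 SE, limma adjusted p = 0.00591). Egr2, a zinc finger factor also known as a regulator of myelinating Schwann cells, went from 5.77 to 7.58 (1.81 ± 0.19 SE). The small Maf gene Mafk rose by 1.42.

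Other members of the same families did not pass. Egr3 differed by -0.48 ± 0.34 (SE), Egr4 by 0.09 ± 0.20, Nr4a3 by 0.35 ± 0.30 and Fosl2, a FOS relative, by 0.53 ± 0.34, and Fosl1 was not analysed here. In P21_KO against P4_WT 5 relatives rose, Fosl2 (1.17) with the 4 above, and all 13 differences were above 0. By genotype none of the 13 passed, with 10 higher, 3 lower and a median of 0.25; Nr4a2 (0.52) and Batf3 (0.97), an AP-1 factor gene, had the smallest p. Egr2 is itself on the list of 9 measured Schwann cell and glial markers. Of these, Mal, Pmp22 and Mbp rose past the threshold by age as Egr2 did, and Gap43 fell. The list mean was 7.17 and 7.07 in P4_WT against 7.43 to 7.77 at 21 days, and Egr2's own rise is part of that difference. The part of glial cells in the Egr2 value was not tested.

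Further immediate early genes outside those families were mostly higher at 21 days. Of 42 measured, 37 were higher and 5 lower in P21_WT than in P4_WT, with a median of 0.58, and 3 rose past the threshold. These were Gadd45b, a stress response gene (1.85 ± 0.24 SE, limma adjusted p = 0.0103), Per1, a clock gene inducible by cyclic AMP (1.82 ± 0.31 SE), and Csrnp1, a nuclear protein gene (1.69 ± 0.31 SE). In P21_KO against P4_WT 17 rose and 1 fell, with a median of 0.73. The rises with the smallest p were again those of Gadd45b (2.59), Per1 (2.53) and Csrnp1 (2.02), followed by Hbegf, the gene of an EGF receptor ligand (2.48), Sik1, a kinase gene (1.44), and Klf6, a zinc finger factor gene (1.33).

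The gene that fell was Ccn2, which encodes a matricellular protein, by 1.57, and its relative Ccn1 rose by 1.92; both are named after their values were seen. By genotype 30 of the 42 were higher and 12 lower, with a median of 0.26, and none passed. Ccn2 had the smallest p, at -1.74 ± 0.26 (SE) with a limma adjusted p of 0.284, and Gadd45b the next, at 0.74 ± 0.21 (SE).

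**Figure D3:**
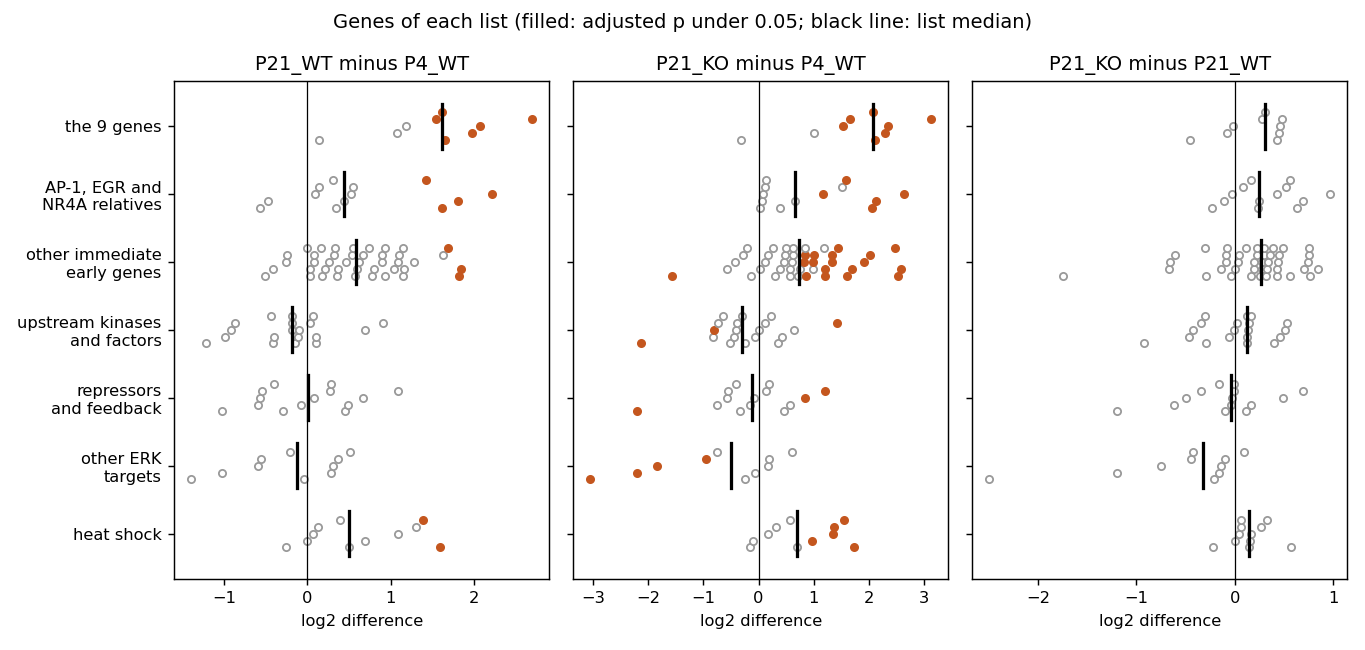
Log2 difference (x axis) of each measured gene of the lists on the y axis in the 3 comparisons, with filled points for an adjusted p under 0.05 and a black line at each list's median. Some genes are on several lists and are drawn in each. The medians of the 9 genes (1.62, 2.08 and 0.31 from left to right) lie to the right of those of every other list, and 0 points are filled in the genotype panel.

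The genes that carry signals to immediate early genes were not called by age. Of 19 measured upstream kinases and transcription factors, 6 were higher and 13 lower in P21_WT, with a median of -0.18, and none passed. The smallest p belonged to Mapk8, the gene of the stress kinase JNK1 (-0.99 ± 0.20 SE, limma adjusted p = 0.0551), and Map2k1, the gene of MEK1 (-0.92 ± 0.20 SE, limma adjusted p = 0.0665). In P21_KO against P4_WT Srf, which encodes serum response factor and is itself an immediate early gene, rose by 1.42, and its ETS partner Elk3 (-2.14) and Map2k1 (-0.80) fell. By genotype none passed, and Elk3 (-0.92) and Mapk8 (0.46) had the smallest p.

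Genes that shut the response down were split. The lists share some genes: Dusp1 and Zfp36 are also counted among the further immediate early genes, and Spry4 among the targets of ERK. Among 14 repressor and feedback genes 7 were higher and 7 lower by age, with a median of 0.00, and none passed. Dusp1, which encodes a phosphatase of MAP kinases and is induced early, was at 1.09 ± 0.30 (SE) and Zfp36, the gene of an mRNA decay factor, at 0.67 ± 0.20. Nab2, the gene of an EGR corepressor, was at 0.49. In P21_KO against P4_WT Dusp1 (1.20) and Zfp36 (0.84) rose and Spry4, an inhibitor of ERK signalling, fell by 2.22. By genotype Spry4 (-1.19) and Spred2 (-0.49), another such inhibitor, had the smallest p, and none of the 14 passed.

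Targets of ERK outside the immediate early group were mostly lower in the knockout. Of 10 measured, 9 were lower in P21_KO than in P21_WT, with a median of -0.32, and none passed. Etv5, an ETS factor gene, was at -2.50 ± 0.36 (SE) and Etv1 at -0.75 ± 0.21 (SE). In P21_KO against P4_WT Etv5, Ccnd1, Spry4 and Etv1 fell, the first by 3.06. By age Ccnd1, the cyclin D1 gene (-1.40), and Epha2 (0.51), a receptor gene, had the smallest p, and none of the 10 passed. Whether these genes differ by genotype from the 9 immediate early genes was not tested.

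Heat shock genes, which respond to protein damage and are raised by tissue dissociation as well, were also mostly higher at 21 days. Their mean over 11 genes was 7.74 and 7.99 on the P4_WT arrays, 8.46 and 8.53 in P21_WT and 8.48 to 8.75 in P21_KO. By age 9 were higher and 2 lower, with a median of 0.50, and Hspa1a (1.59 ± 0.21 SE) and Hspa1b (1.39 ± 0.21 SE) rose. These are near-identical genes whose signals may not be separable. In P21_KO against P4_WT Hsph1, Hspb1 and Dnajb1 rose as well, and by genotype none passed, with Dnajb1 (0.58) and Hspd1 (-0.22) having the smallest p. From P21_WT replicate 1 to replicate 2 the centred mean of the 9 genes went from 0.58 to -0.01. The mean of the heat shock genes went from 8.46 to 8.53. The part of tissue handling in the values of the 9 genes was not tested.

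**Figure D4:**
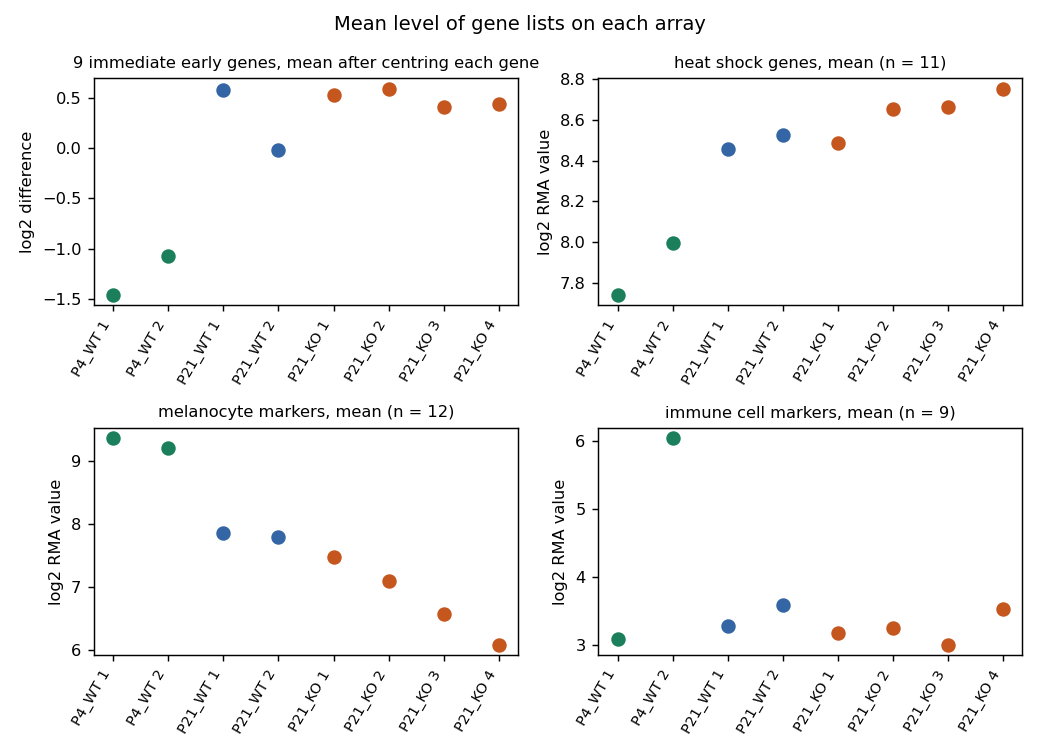
Mean log2 level (y axis) on each of the 8 arrays (x axis) for the 9 genes after each gene was centred on its mean, for 11 heat shock genes, for 12 melanocyte markers and for 9 immune cell markers, each panel with its own scale. The 9 genes were lowest on the P4_WT arrays (-1.46 and -1.08), where melanocyte markers were highest (9.35 and 9.20), and immune markers were high on P4_WT replicate 2 alone (6.04).

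Some markers of hair and of fibroblasts passed the threshold by age. Hair shaft and inner root sheath markers had a mean of 6.02 and 4.19 in P4_WT and 2.79 to 2.89 at 21 days, with Krt25, Krt27 and Krt71 falling past the threshold. Of 9 keratinocyte markers 6 were higher in P21_WT and none passed, with a mean of 7.32 and 6.44 in P4_WT, 7.59 and 7.59 in P21_WT, and 6.92 to 8.03 in P21_KO. Of 8 fibroblast markers, 7 were lower and 1, Fbln1, fell, and the list's mean was 5.69 to 6.57 on 7 arrays and higher on P4_WT replicate 2. The part of these cells in the levels of the immediate early genes was not tested.

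As a description, the correlation across the 8 arrays of each gene with the mean of the other members was 0.925 to 0.992 for Fos, Fosb, Jun, Junb, Egr1, Nr4a1 and Atf3, 0.797 for Ier2 and -0.141 for Ier3. With group means taken out, the median over the 36 pairs was 0.149, and 26 pairs were above 0. The pairs among Fos, Fosb, Jun, Junb and Atf3 then ran from 0.676 (Fos and Atf3) to 0.975 (Fosb and Junb), and Egr1 and Nr4a1 were at 0.780. In a group of 2 arrays the deviations from the mean mirror each other. Fos, Fosb, Jun, Junb and Atf3 were all higher on P4_WT replicate 2 and on P21_WT replicate 1, which enters their correlations. Nr4a1 was at -0.357 with Jun and -0.170 with Junb, and Ier2 at -0.490 with Atf3. The arrays are few, and these values were singled out after they were seen. The genes outside the list with the profile most like the mean of the 9 over the 8 arrays were Phldb1 (r = 0.99), Mafk (0.98), Arid3a (0.98), Csrnp1 (0.98) and Snapc4 (0.98). Of these Arid3a was under the all-value median on each of the 8 arrays and varied by only 0.55. Phldb1 rose by age by 1.31 ± 0.21 (SE), with a limma adjusted p of 0.0258.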

How the data were processed

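Total RNA from sorted cells was amplified, labelled with biotin and hybridised to arrays, per the labels' protocols. The submitters' processing notes name RMA and the Affymetrix Expression Console, with versions not given in the sources used here, and the values the authors deposited are log2. RMA corrects background, equalises the arrays' distributions and summarises probes, and it compresses differences near the floor. All 9 members were above the all-value median on every array.

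Of 41345 rows, 23521 named 1 gene in the platform annotation, 1814 named several and 16010 are unnamed here. For 1082 genes with several such rows, the row with the highest mean was kept. Groups came from sample titles. A model with 3 group means was fitted to 8 arrays and 22180 genes by lmFit and eBayes of limma 3.58.1 in R 4.3.3 (5 residual degrees of freedom), with two-sided p-values adjusted over all genes, after a test on simulated data. With so few arrays, their number limits the precision. Promoters were searched with Python 3.11.15.

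Members and lists were chosen with earlier results of these data known. Text names all 9 members, 8 fixed relatives and Braf, and from each list up to 6 called genes with the smallest p, or 2 where none was called. Alternatives covered arrays in the fit, prior, array weights, normalization, dim genes, probe sets, replicate numbers, the shared label number, the threshold and leaving out each array.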

Additional observations from a re-analysis of the deposited data

Results flagged for a closer look

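Within the 4 P21_KO arrays, Fos on replicate 4 read 9.59 on the log2 scale against 9.20 to 9.26 on the other 3, a gap larger than a Dixon outlier test allows at the 95% level. Such a test marks about 1 in 20 groups by chance, and 9 genes were tested in this group. Leaving the array out gave a P21_KO minus P4_WT difference of 2.20 for Fos, against 2.29 with it.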

How the results depend on the processing

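Of the 9 genes, 6 were called by age, 0 by genotype and 7 in P21_KO against P4_WT. With 1 array left out these counts ran from 0 to 6, 0 to 0 and 6 to 8, and the counts over all genes (357, 0 and 1715) ran from 119 to 338, 0 to 15 and 921 to 1529. With only the arrays of the 2 groups compared, 0 of the 9 and 49 of all genes were called by age. With the P21_KO arrays of shared label number averaged, which leaves fewer samples, the counts were 2 of the 9 by age, 1 of all genes by genotype and 977 of all genes in P21_KO against P4_WT. At an adjusted p under 0.10, 674 genes were called by age. Deviations of same-numbered arrays correlated at -0.04 to 0.01 across genes, which gave no sign of pairing by the replicate numbers of the labels. With 2 arrays in each wild-type group, these values cannot exclude pairing. With the replicate block, 0 of the 9 and 45 of all genes were called by age, and 4 and 463 in P21_KO against P4_WT.

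Differences that changed sign were all uncalled. By genotype, Jun was at 0.0062 after cyclic loess, 0.0032 with arrays centred on their medians and 0.042 with the replicate block, and Ier2 was at 0.051 with the replicate block and 0.10 with the shared-number arrays averaged. Ier3 with the replicate block was at 0.092 by genotype and 0.23 in P21_KO against P4_WT. With 1 array left out, the difference by genotype ran from -0.15 to 0.11 for Jun, -0.24 to 0.084 for Ier2, -0.038 to 0.91 for Fosb, -0.093 to 0.66 for Junb and -0.0042 to 0.97 for Egr1. That of Ier3 ran from -0.26 to 0.54 by age and -0.54 to 0.026 in P21_KO against P4_WT. The cause was not tested. Array weights, the trended robust prior and the choice of probe sets left each count of the 9 as it was. Since each of the 9 was read by 1 probe set, that choice could not change their values. Cyclic loess and leaving out dim genes gave 8 of the 9 in P21_KO against P4_WT.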
